A study of Ovis aries with 8 samples.

Results

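Naive-like sheep embryonic stem cells grown on mouse embryonic fibroblasts were compared with the same kind of cells grown without feeder cells. The comparison used 4 of the 8 RNA-seq libraries of the series, 2 on mouse embryonic fibroblasts (MEFs) and 2 feeder-free, chosen by the column names of the deposited table. Of 28475 genes in the table, 13732 had at least 1 TPM (a transcript level corrected for length, with 1 fixed sum per library) in at least 2 of these 4 libraries and were tested. Both groups were labelled as cells converted from the primed to the naive state, at passage 12, from a line called N sESC that traces to the inner cell mass of the blastocyst. Both were kept at 37 °C and 5% CO2 in medium with Activin A and human LIF (20 ng/mL of each), ascorbic acid at 50 µg/mL and 4 inhibitors. These were PD0325901 (1 µM, against MEK), XAV-939 (2 µM, against tankyrase), Go6983 (2 µM, against protein kinase C) and CGP77675 (1.2 µM, against SRC kinases). The feeder layer was thus the labelled difference between the groups. The other 4 libraries came from feeder-free primed cells of lines A and B at passage 10, genotype WT, in NBFR medium with Activin A, bFGF and endo-IWR-1. They entered the estimate of the spread between libraries, and their levels are given as context. The naive-like cells came from a single named line, and the sources used here do not give whether MEFs were removed before RNA was extracted.

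MEFs are primary connective tissue cells that are usually stopped from dividing and then laid under stem cells, where they secrete growth factors and deposit matrix. Their own transcripts are rich in fibrillar collagens and small proteoglycans. Feeder layers have long been used to hold pluripotent cells undifferentiated, and feeder-free culture replaces them with a coated surface and defined factors. RNA taken from a culture on feeders can hold transcripts of both kinds of cells.

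Each naive-like library held 13294 to 13663 genes at 1 TPM or more, and about 20 M read pairs per library are named in the labels. TPM do not hold counts, so the depth behind single values is unknown. Across the tested genes, log2(TPM + 1) correlated at 0.987 between the MEF libraries, at 0.986 between the feeder-free libraries and at 0.977 to 0.979 between the groups, over genes, which are not independent replicates. No label says that replicates were separate cultures, so the p-values reflect only how far these particular libraries differ, which may be technical. Genes for ribosomal RNA, 18 in number, took 2.69% and 3.48% of all TPM on MEFs, against 1.43% and 1.63% without feeders. POU5F1, the core transcription factor of pluripotent cells, stood at 1532 and 1542 TPM in the MEF libraries, against 1647 and 1706 TPM in the feeder-free libraries. Both groups thus carried this general marker of pluripotent cells. Primed libraries carried it too, at 610 to 662 TPM, so its presence alone does not set the naive-like state apart.

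Of the 13732 genes, 476 (3.47%) rose and 386 (2.81%) fell on MEFs, 862 (6.28%) in all, by limma at an adjusted p under 0.05. Rises were larger than falls: 136 genes (0.99%) rose and 24 (0.175%) fell by at least 2-fold. Folds are taken after adding 1 to each TPM, which makes changes of low genes look smaller. At an unadjusted p under 0.05, 3010 genes (21.9%) passed, 1627 (11.8%) higher and 1383 (10.1%) lower on MEFs, against which the unadjusted counts of the gene lists are to be read. Called members of the gene lists are likewise to be read against 3.47% higher and 2.81% lower. The median change of all tested genes was 0.0185 on the log2 scale. In 53.6% of all tested genes the groups did not overlap, so a lack of overlap alone marks little with 2 libraries a group. All 476 genes called higher and all 386 called lower lacked overlap, so this adds nothing to a call. With ribosomal RNA genes left out of the total, 540 rose and 322 fell. Without MEF replicate 1 or 2, 248 and 215 genes passed, and without feeder-free replicate 2, 384. Without feeder-free replicate 1, 556 rose and 215 fell. All 4 of these fits passed 170 of the 862 genes, of which 118 were higher and 52 lower on MEFs.

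**Figure D1:**
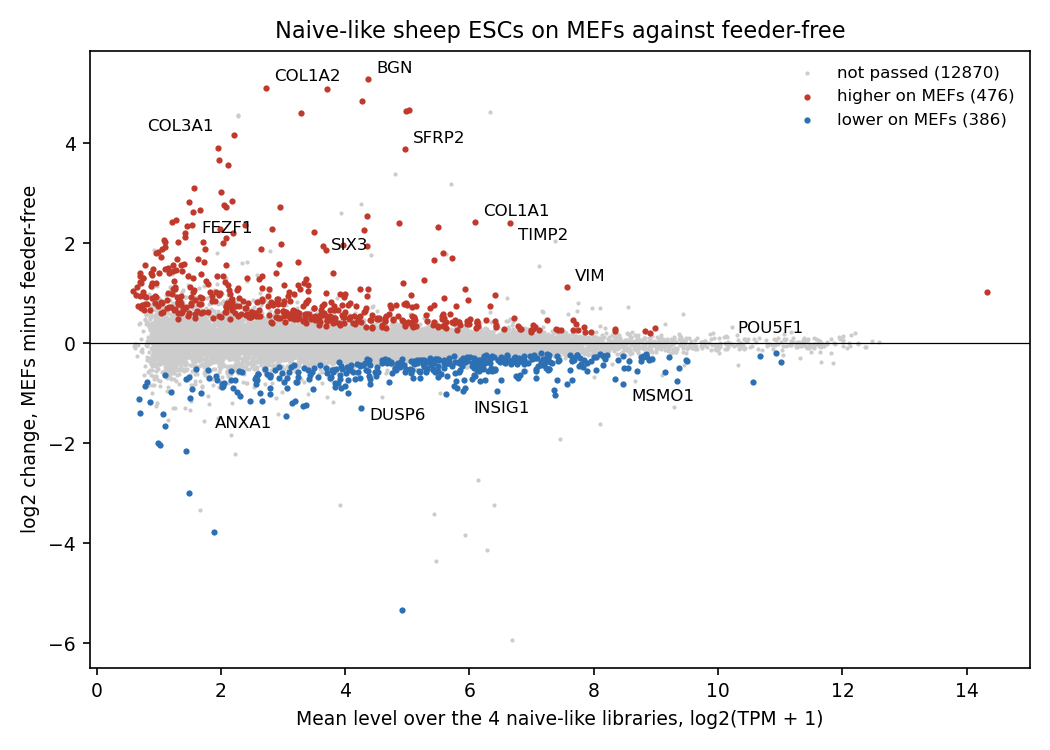
Change on MEFs (log2, MEFs minus feeder-free) against the mean level over the 4 naive-like libraries for the 13732 tested genes, each a point. Red points are the 476 genes that rose, blue points the 386 that fell and grey points the rest. BGN is the highest red point, and more red than blue points lie beyond 2-fold (136 against 24).

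Genes of the extracellular matrix led the named rises. BGN, which encodes the small proteoglycan biglycan, was at 131 and 124 TPM in the MEF libraries, against 1.89 and 2.77 TPM in the feeder-free libraries. COL1A2, a chain of fibrillar type I collagen, was at 39.0 and 37.0 TPM in the MEF libraries, against 0.0468 and 0.219 TPM in the feeder-free libraries, and COL3A1, the chain of type III collagen, at 17.5 and 19.8 TPM on MEFs, against 0.123 and 0.0818 TPM without feeders. Each of these was low in both feeder-free libraries and high in both MEF libraries, with changes of 5.28 ± 0.191, 5.11 ± 0.132 and 4.15 ± 0.154 (log2, SE; limma, adjusted p = 3.35e-06, 1.03e-06 and 3.35e-06). COL1A1, the partner of COL1A2 in type I collagen, was at 157 and 155 TPM on MEFs, against 28.0 and 28.5 TPM without feeders, a rise of 2.42 ± 0.0955, and so was already expressed in the absence of MEFs. ASPN, a proteoglycan related to biglycan, was at 12.7 and 13.1 TPM on MEFs, against 0.125 and 0.0735 TPM without feeders. TIMP2, an inhibitor of matrix metalloproteinases, was at 235 and 224 TPM on MEFs, against 40.2 and 45.5 TPM without feeders, a rise of 2.40 ± 0.089. CAV1, the coat protein of caveolae, was at 41.8 and 42.1 TPM on MEFs, against 9.35 and 6.81 TPM without feeders. Its rise of 2.26 ± 0.329 did not pass without feeder-free replicate 2 or MEF replicate 2. The others passed with each library left out in turn.

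Among 30 marker genes of fibroblasts, all in the table, 21 were tested, of which 10 rose and 3 fell, with a median change of 0.481 against 0.0185 over all genes. Of the 21 changes, 16 were above 0 and 5 below. At an unadjusted p under 0.05 (limma), 14 were higher and 4 lower on MEFs. Without feeder-free replicate 1 or 2, or MEF replicate 1 or 2, in that order, 11, 8, 8 and 8 rose and 0, 1, 1 and 0 fell. PRRX1, a homeobox gene of limb and connective tissue mesenchyme, was at 6.84 and 8.54 TPM on MEFs, and in the feeder-free libraries was listed at 0 in replicate 1 and stood at 0.0267 TPM in replicate 2. TWIST1, a mesenchymal transcription factor, was at 2.28 and 1.75 TPM on MEFs and at 0 and 0.283 TPM without feeders. ACTA2, smooth muscle actin, was at 97.7 and 91.2 TPM on MEFs, against 26.8 and 29.7 TPM without feeders. VIM, the intermediate filament of mesenchymal cells, was at 286 and 271 TPM on MEFs, against 126 and 129.6 TPM without feeders, and LOX, which cross-links collagen, at 29.6 and 28.4 TPM on MEFs, against 14.6 and 12.0 TPM without feeders. IGFBP7 (0.80 ± 0.135) and COL6A2 (0.48 ± 0.0991) rose as well. LUM (−0.59 ± 0.106), TAGLN (−0.22 ± 0.044) and COL5A1 (−0.41 ± 0.0875) fell. Of these 5, only IGFBP7 and LUM passed in any fit with a library left out.

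The summed level of the 30 markers was 2023 and 1978 TPM on MEFs, against 1596 and 1541 TPM in the feeder-free libraries. Primed libraries, which had no feeders, summed to 4221 to 4607 TPM. Of the primed sums, VIM alone took 1623 to 1848 TPM, while COL1A2 was at 1.73 to 3.48 TPM in primed libraries. Many markers were present without feeders: 16 of the 30 were at 1 TPM or more in both feeder-free libraries, and 22 in all primed libraries. In both MEF libraries 21 were at 1 TPM or more. Of the 30, 5 were under 1 TPM in both feeder-free libraries and at or over 1 TPM in both MEF libraries. Of the 30 markers, 9 were too low in the naive-like libraries to be tested, among them the genes that follow. PDGFRA, a growth factor receptor of mesenchymal cells, was at 0.61 and 0.568 TPM on MEFs, against 0.343 and 0.155 TPM without feeders. POSTN, a matrix protein, was at 0.833 and 0.541 TPM on MEFs and listed at 0 without feeders. FAP was listed at 0 and at 0.0519 TPM on MEFs, and DCN, the proteoglycan decorin, was at 0.237 and 0.602 TPM on MEFs, against 1.04 and 0.588 TPM without feeders. Neither the table nor the labels separate sheep from mouse transcripts, and the part of MEF RNA in any of these changes was not tested. In such bulk libraries, more cells of a kind and more RNA per cell cannot be told apart.

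**Figure D2:**
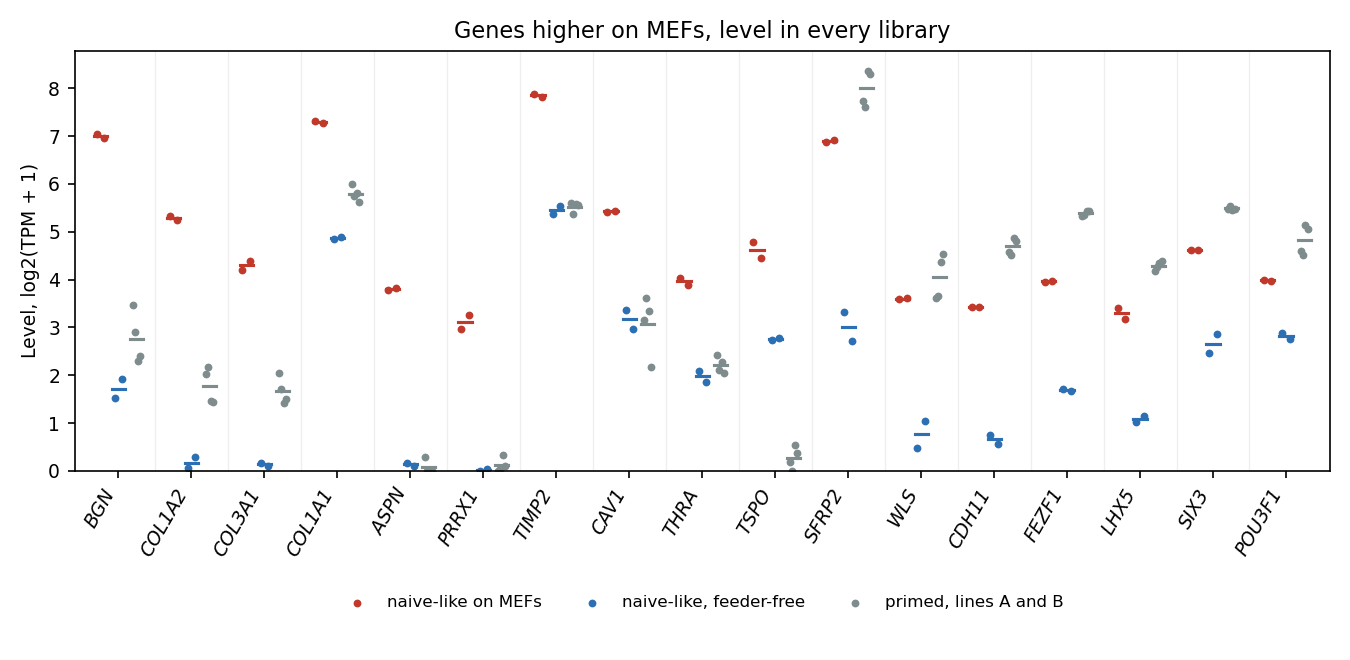
Levels, log2(TPM + 1), of 17 genes that rose on MEFs, with a point for each library and a bar for the mean of each group: naive-like on MEFs (red), naive-like feeder-free (blue) and primed (grey). BGN, COL1A2, COL3A1, TIMP2 and PRRX1 are higher on MEFs than in both feeder-free groups, while SFRP2, FEZF1, LHX5, SIX3 and CDH11 are higher still in primed cells.

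A further group of large rises was in genes that the primed libraries expressed more strongly. SFRP2, a secreted modulator of WNT signalling, was at 116 and 119.9 TPM in the MEF libraries, against 8.96 and 5.56 TPM in the feeder-free libraries, a rise of 3.88 ± 0.159, and at 194 to 329 TPM in primed libraries. WLS, which carries WNT ligands to the cell surface, was at 11.05 and 11.2 TPM on MEFs, against 0.395 and 1.07 TPM without feeders, and at 11.3 to 22.1 TPM in primed libraries. CDH11, a cadherin of mesenchymal cells, was at 9.80 and 9.71 TPM on MEFs, against 0.695 and 0.484 TPM without feeders, and at 21.9 to 28.3 TPM in primed libraries. In each of these the MEF libraries agreed closely. That they lay above both feeder-free libraries follows from the rule by which these genes were named, which required no overlap.

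Transcription factors of the anterior neural plate belonged to the same group. FEZF1, a zinc finger gene of the forebrain, was at 14.5 and 14.8 TPM on MEFs, against 2.28 and 2.17 TPM without feeders, a rise of 2.28 ± 0.0797, and at 39.0 to 42.5 TPM in primed libraries. LHX5, a LIM homeobox gene of the forebrain, was at 9.67 and 8.09 TPM on MEFs, against 1.05 and 1.22 TPM without feeders, and SIX3, a homeobox gene of the eye field and forebrain, at 23.4 and 23.5 TPM on MEFs, against 4.50 and 6.29 TPM without feeders. LHX5 rose by 2.21 ± 0.115 and SIX3 by 1.95 ± 0.123, and primed libraries had 17.0 to 19.8 TPM of LHX5 and 42.6 to 45.7 TPM of SIX3. All 3 passed with each library left out in turn. POU3F1, a POU factor of the primed epiblast and of neural progenitors, was at 14.97 and 14.8 TPM on MEFs, against 6.40 and 5.76 TPM without feeders, a rise of 1.17 ± 0.0885.

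The neuroectoderm list as a whole showed less. Of its 18 genes, 8 were tested, with a median change of 0.278. Against 3.47% rising and 2.81% falling over all genes, 4 of the 8 rose and 0 fell (limma; 6 higher and 0 lower at an unadjusted p under 0.05). Beside SIX3, these were NCAM1 (0.55 ± 0.1), DLX5 (0.92 ± 0.203) and OTX2 (0.24 ± 0.0548), which stood at 355 and 352 TPM on MEFs, against 311 and 285 TPM without feeders. With a library left out, 1 or 2 of the 4 rises remained past the threshold. Early neural genes that mark primed libraries here were at or near 0 in both naive-like groups: SOX1 was at 0.0374 and 0.0406 TPM on MEFs, against 0.0766 and 0.0837 TPM without feeders, with 7.19 to 12.8 TPM in primed libraries. RAX, a gene of the eye field, was at 0.0759 and 0.164 TPM on MEFs, against 0.0822 and 0.177 TPM without feeders, and LHX2, another forebrain gene, at 0.989 and 0.687 TPM on MEFs, against 0.828 and 0.423 TPM without feeders, with 33.2 to 43.6 TPM in primed libraries.

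Mesenchymal genes rose in 7 of 12 tested and fell in 0, against 3.47% and 2.81% over all genes (limma; 9 higher and 1 lower at an unadjusted p under 0.05). The list had a median change of 0.463. Of its tested genes, VIM, TWIST1, FN1, MMP2 and SPARC are also fibroblast markers. CDH2, the cadherin of neural and mesenchymal cells, was at 19.2 and 18.4 TPM on MEFs, against 12.7 and 11.1 TPM without feeders, and at 161 to 185 TPM in primed libraries. ZEB2, a repressor of epithelial genes, was at 3.52 and 4.51 TPM on MEFs, against 1.68 and 1.52 TPM without feeders. ZEB1 rose by 0.48 ± 0.114 and the membrane metalloproteinase MMP14 by 0.44 ± 0.0881. With a library left out, 5 or 6 members rose, and ZEB1 and MMP14 passed in none of these fits. The matrix genes FN1 (0.42 ± 0.119) and SPARC (0.21 ± 0.0651) did not pass (limma, adjusted p = 0.0797 and 0.0953), although FN1 passed without feeder-free replicate 1.

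Among epithelial genes, 4 of 20 tested fell and 1 rose, against 2.81% and 3.47% over all tested genes. Their median change was −0.0824. CDH1, the epithelial cadherin that holds pluripotent cells together, was at 129.6 and 119.8 TPM on MEFs, against 186 and 169 TPM without feeders, a change of −0.50 ± 0.0888. The tight junction protein CLDN6 (−0.36 ± 0.0659), KRT19 (−0.27 ± 0.0634) and the polarity protein CRB3 (−0.38 ± 0.0908) fell, and GRHL2, an epithelial transcription factor, was at 2.46 and 2.15 TPM on MEFs, against 0.821 and 0.905 TPM without feeders, a rise of 0.83 ± 0.163. With a library left out, 0 rose and at most 1 fell, and with ribosomal RNA genes left out of the total, 2 rose and 2 fell. EPCAM, a surface marker of epithelial and pluripotent cells, was at 364 and 369 TPM on MEFs, against 437 and 401 TPM without feeders, and did not pass (limma, adjusted p = 0.364).

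Of the 43 gene lists, the one for cholesterol synthesis and uptake had the most members called: of 21 tested genes, 18 fell on MEFs and 0 rose (limma; 19 lower and 0 higher at an unadjusted p under 0.05), against 2.81% falling over all genes. Their median change was −0.58, and 20 of 21 were below 0. The lists were chosen with earlier results of these data known, so these counts describe the list and do not test it. Without feeder-free replicate 1 or 2, or MEF replicate 1 or 2, in that order, 17, 15, 14 and 12 fell, and 18 fell under each of the 5 rescalings tried. The pathway builds sterols from acetyl-CoA, and its genes are switched on together by the transcription factor SREBP2 when sterols in the endoplasmic reticulum run low.

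Enzymes at the start of the pathway were lower on MEFs. HMGCS1, which makes HMG-CoA, was at 466 and 454 TPM in the MEF libraries, against 709.6 and 670.0 TPM in the feeder-free libraries, a change of −0.58 ± 0.0502. MVD, which makes isopentenyl pyrophosphate, was at 155 and 155 TPM on MEFs, against 255 and 259 TPM without feeders, and FDPS, which joins isoprene units into farnesyl pyrophosphate, at 507 and 484 TPM on MEFs, against 825 and 849 TPM without feeders. MVD fell by 0.73 and FDPS by 0.76 on the log2 scale. In each of these genes both MEF libraries lay below both feeder-free libraries, as in all 386 genes called lower.

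Enzymes of later steps fell as well. SQLE, which oxidizes squalene, was at 128 and 132 TPM on MEFs, against 215 and 223 TPM without feeders, and MSMO1, a sterol demethylase subunit, at 272 and 263 TPM on MEFs, against 478 and 466 TPM without feeders, changes of −0.75 ± 0.055 and −0.82 ± 0.0484. DHCR7, a reductase of the last steps, fell by 0.66, SC5D by 0.77, NSDHL by 0.64 and LSS by 0.55 on the log2 scale. TM7SF2, a sterol reductase outside the list that was among the largest falls, was at 32.6 and 34.7 TPM on MEFs, against 68.1 and 70.8 TPM without feeders, a change of −1.02 ± 0.0668. INSIG1, which retains SREBP in the endoplasmic reticulum, was at 44.2 and 42.6 TPM on MEFs, against 85.1 and 79.4 TPM without feeders, a change of −0.91 ± 0.0725. Of the fits that left out a library, LSS passed only the one without feeder-free replicate 1. SREBF2, which encodes SREBP2 itself, was at 141 and 144 TPM on MEFs, against 166 and 162 TPM without feeders, and did not pass (limma, adjusted p = 0.22), nor did STARD4 (−0.14 ± 0.121) or HSD17B7 (0.07 ± 0.186).

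Primed libraries stood at different places relative to both groups. FDPS was at 473 to 498 TPM in primed libraries, SQLE at 158 to 175 TPM, MSMO1 at 361 to 395 TPM and HMGCS1 at 658 to 738 TPM. FDPS on MEFs thus met the primed range, and SQLE, MSMO1 and HMGCS1 on MEFs sat below it. APOE, an apolipoprotein that carries cholesterol, fell too, with 107 and 103 TPM on MEFs, against 164 and 176 TPM without feeders, a change of −0.69 ± 0.0662.

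**Figure D3:**
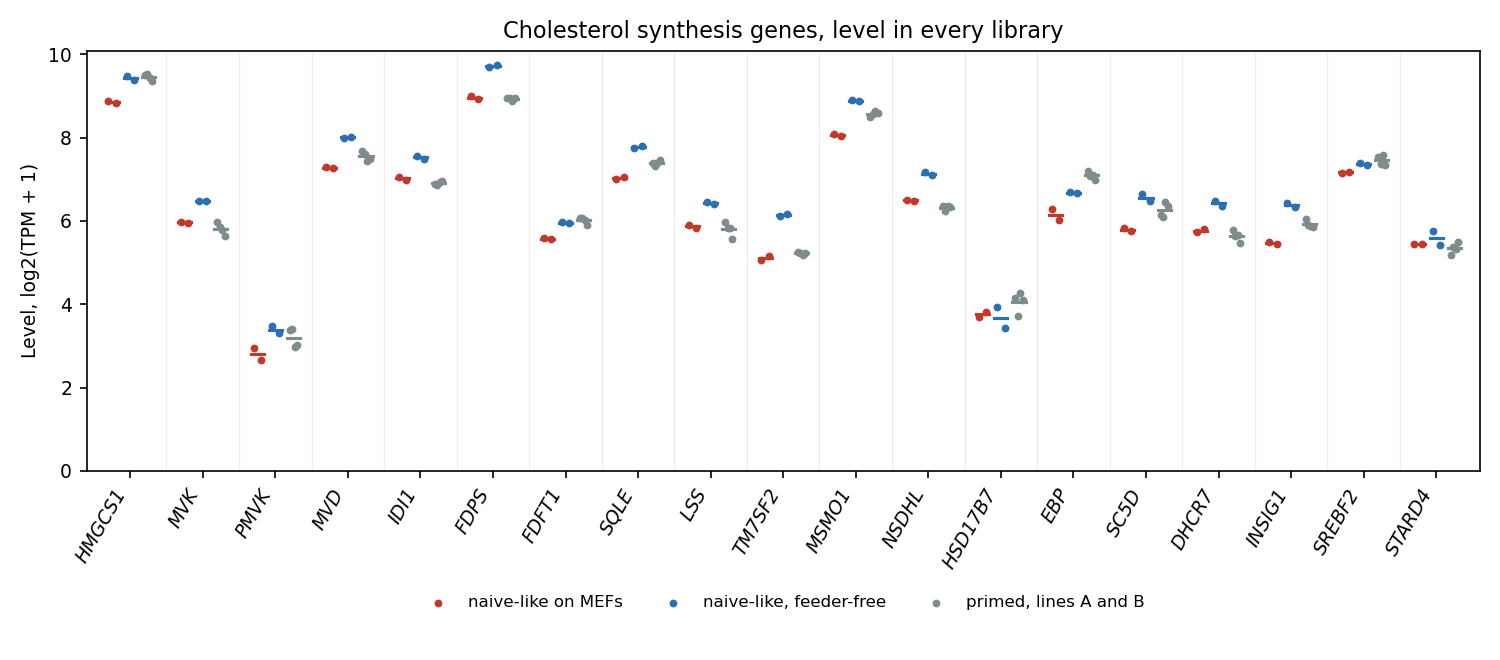
Levels, log2(TPM + 1), of cholesterol genes in every library, in the order of the pathway followed by genes of sterol sensing and transport, with points for libraries and bars for group means (MEFs red, feeder-free blue, primed grey). The red points lie below the blue ones in every gene drawn except HSD17B7 and STARD4, whose groups overlap.

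CDKN1A, an inhibitor of cyclin-dependent kinases, was at 10.4 and 9.89 TPM in the MEF libraries, against 20.5 and 19.2 TPM in the feeder-free libraries, a change of −0.90 ± 0.134, and at 8.11 to 13.6 TPM in primed libraries. Both MEF libraries lay below both feeder-free libraries, and the change passed except without MEF replicate 2. It was the single fall among 17 genes of the G1 and S phases, of which 2 rose, CCND3 (0.56 ± 0.114) and CDKN1C (0.47 ± 0.103). Of DNA replication and mitosis genes, 0 of 24 were called (limma; 3 higher and 1 lower at an unadjusted p under 0.05, against 11.8% and 10.1% over all genes) with a median change of 0.0453.

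Of targets of FGF, MEK and ERK signalling, 4 of 20 tested fell and 0 rose (limma; 11 lower and 1 higher at an unadjusted p under 0.05, against 10.1% lower and 11.8% higher over all genes), with a median change of −0.275. Both groups received the same dose of MEK inhibitor. DUSP6, the phosphatase that switches ERK off and a standard readout of its activity, was at 11.5 and 10.8 TPM in the MEF libraries, against 27.9 and 29.7 TPM in the feeder-free libraries, a change of −1.29 ± 0.0736, and at 102 to 119.7 TPM in primed libraries. The ETS factor ETV4 was at 16.7 and 15.5 TPM on MEFs, against 23.1 and 25.2 TPM without feeders, the feedback inhibitor SPRY4 at 3.91 and 3.91 TPM on MEFs, against 6.58 and 6.45 TPM without feeders, and the growth regulator MYC at 31.0 and 31.4 TPM on MEFs, against 46.8 and 47.3 TPM without feeders. Only DUSP6 passed with each library left out: without MEF replicate 1 or 2 it was the single fall of the list, and without feeder-free replicate 1 or 2, 4 and 3 members fell. With quantile normalization 8 of the 20 fell. ETV5, another ETS factor, was at 12.4 and 10.9 TPM on MEFs, against 13.4 and 12.6 TPM without feeders, and did not pass (limma, adjusted p = 0.377).

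In the Nodal and Activin list, 2 of 15 tested genes fell and 0 rose (limma; 4 lower and 2 higher at an unadjusted p under 0.05). Counts in this paragraph are to be read against 3.47% higher and 2.81% lower over all tested genes. Outside the list, the NODAL co-receptor gene CRIPTO fell (log2 change −0.9009) and INHBE, a subunit gene of the Activin family, rose (1.507). FST, the Activin antagonist follistatin, was at 163 and 159 TPM on MEFs, against 232 and 240.4 TPM without feeders, a change of −0.55 ± 0.0586. NODAL, which encodes a TGF-beta type ligand, was at 19.6 and 18.1 TPM on MEFs, against 32.7 and 33.8 TPM without feeders, a change of −0.79 ± 0.122 that passed only in the fit without feeder-free replicate 1 among those that left out a library. The feedback genes SMAD7 (−0.25 ± 0.096) and PMEPA1 (−0.15 ± 0.144) did not pass. In the LIF and STAT3 list 1 of 19 rose, GADD45G, a stress gene, at 1.13 and 1.40 TPM on MEFs, against 0.159 and 0.178 TPM without feeders, and the feedback inhibitor SOCS3 was at 20.8 and 21.7 TPM on MEFs, against 26.4 and 26.7 TPM without feeders (limma, adjusted p = 0.0672). GADD45G did not pass without MEF replicate 2. Among WNT targets 1 of 8 rose, AXIN2, a negative regulator of the pathway, at 2.48 and 2.44 TPM on MEFs, against 1.04 and 1.56 TPM without feeders. Without feeder-free replicate 1 or either MEF library it did not pass. RSPO3, a secreted enhancer of WNT signalling in the hypoblast list, was at 1.57 and 1.62 TPM on MEFs and at 0.0367 and 0 TPM without feeders, against 2.53 to 4.39 TPM in primed libraries, a rise of 1.35 ± 0.146.

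Core pluripotency genes were called in 0 of 13 tested (limma; 2 higher and 3 lower at an unadjusted p under 0.05, against 11.8% and 10.1% over all genes), with a median change of 0.0379. Of 16 names in the list, 14 were in the table. The count leaves out CRIPTO, another symbol of the listed gene TDGF1, which was called lower on MEFs (log2 change −0.9009). SOX2 was at 315 and 321 TPM on MEFs, against 323 and 293 TPM without feeders, NANOG at 83.6 and 83.0 TPM on MEFs, against 136 and 92.6 TPM without feeders, and the naive-associated factor PRDM14 at 47.4 and 50.8 TPM on MEFs, against 56.5 and 49.9 TPM without feeders. The POU5F1 change was −0.12 ± 0.0436, with an adjusted p of 0.14 by limma. For NANOG the change was −0.43 ± 0.2, and feeder-free replicate 1 stood above the other 3 libraries. GDF3, a TGF-beta ligand, was at 5.28 and 8.23 TPM on MEFs, against 9.42 and 14.2 TPM without feeders, and did not pass (limma, adjusted p = 0.105), and UTF1, a chromatin factor, at 36.8 and 36.5 TPM on MEFs, against 43.3 and 49.7 TPM without feeders, was just short of passing (adjusted p = 0.05003) and passed without feeder-free replicate 1. These p-values do not show that levels were alike. Without a library, at most 2 core members rose and at most 1 fell.

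Naive pluripotency genes likewise had 0 calls among 6 tested (limma; 1 higher and 0 lower at an unadjusted p under 0.05). KLF4, a Krüppel-like factor of naive cells, was at 5.83 and 7.22 TPM on MEFs, against 4.71 and 3.79 TPM without feeders, KLF5 at 59.6 and 58.6 TPM on MEFs, against 54.7 and 48.1 TPM without feeders, and TFCP2L1 at 3.51 and 2.90 TPM on MEFs, against 2.83 and 2.94 TPM without feeders. Of 22 names in that list, 18 were in the table, and those not tested, such as ESRRB at 0.0163 and 0.0883 TPM on MEFs, against 0.0432 and 0.0672 TPM without feeders, were under 1 TPM in all 4 naive-like libraries. Of 20 primed pluripotency genes tested, 4 rose and 2 fell, which were SFRP2, POU3F1, CDH2, OTX2, DUSP6 and ETV4 as given above. DNMT3B, the de novo DNA methyltransferase, was at 402 and 395 TPM on MEFs, against 459 and 418 TPM without feeders (limma, adjusted p = 0.308), and ZIC2 at 213 and 205 TPM on MEFs, against 232 and 228 TPM without feeders (adjusted p = 0.174).

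**Figure D4:**
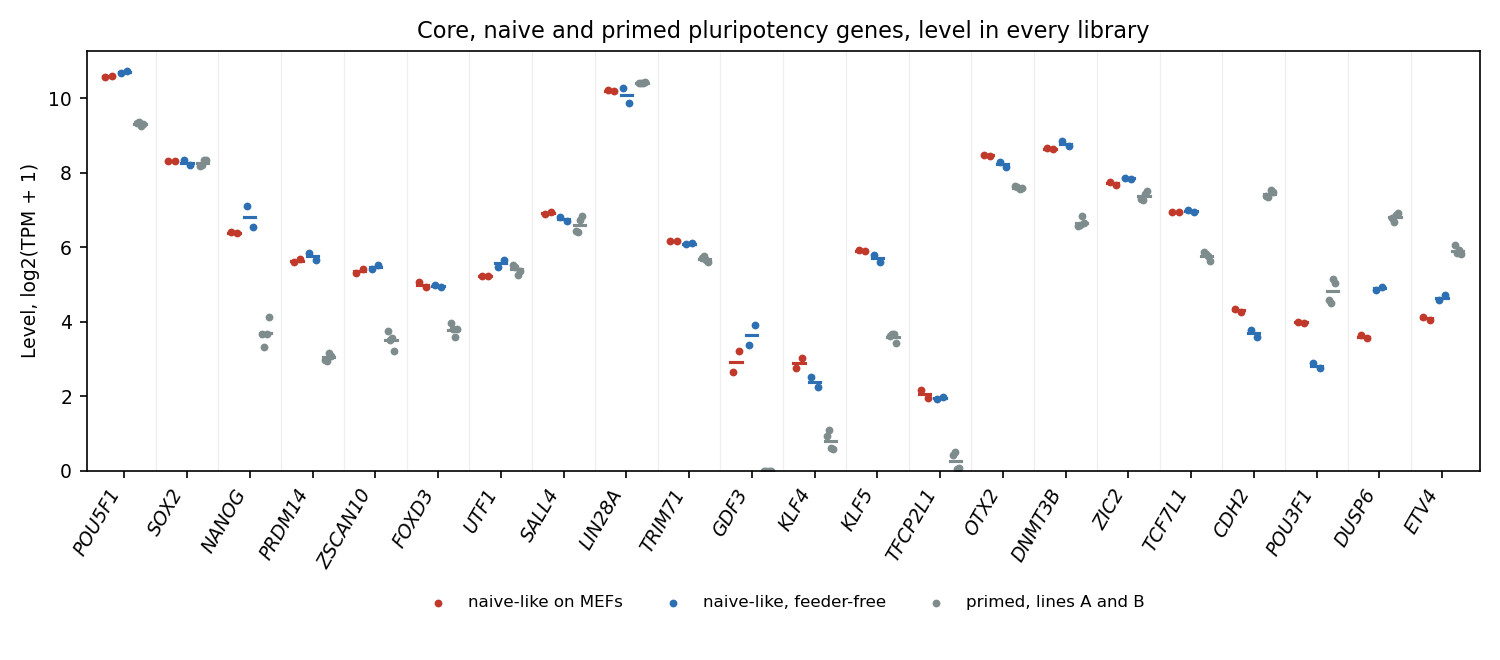
Levels, log2(TPM + 1), of core, naive and primed pluripotency genes in every library, with points for libraries and bars for group means (MEFs red, feeder-free blue, primed grey). Red and blue points lie close for most genes, while POU3F1 is higher and DUSP6 lower on MEFs.

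Chaperones and enzymes of the endoplasmic reticulum fell by small amounts. Of 18 genes of the unfolded protein response, 9 fell and 0 rose, against 2.81% and 3.47% over all genes (limma; 15 lower and 0 higher at an unadjusted p under 0.05). Their median change was −0.26. HSPA5, the main chaperone of the compartment, was at 383 and 376 TPM on MEFs, against 491 and 487 TPM without feeders, a change of −0.36 ± 0.0516. The calcium-binding chaperone CALR was at 639 and 631 TPM on MEFs, against 789 and 825 TPM without feeders, and the secreted protein MANF at 181 and 172 TPM on MEFs, against 213 and 240.2 TPM without feeders. These calls rested on all libraries: without feeder-free replicate 1 or 2, or MEF replicate 1 or 2, in that order, 5, 1, 1 and 0 fell, and without the variance trend 1 fell. Lysosomal genes had 5 of 21 falling and 0 rising (limma; 12 lower and 0 higher at an unadjusted p under 0.05), among them the protease CTSD, at 182 and 186 TPM on MEFs, against 241 and 263 TPM without feeders, with 0 or 1 falling when a library was left out. Heat shock genes had 2 of 12 falling, HSPD1 (−0.27 ± 0.0508) and HSPA8 (−0.20 ± 0.0409), and 0 or 1 with a library left out.

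Among interferon response genes 3 of 14 fell and 0 rose, against 2.81% and 3.47% over all genes (limma; 6 lower and 0 higher at an unadjusted p under 0.05). Their median change was −0.262. B2M, the light chain of MHC class I, was at 125 and 111 TPM in the MEF libraries, against 240.1 and 214 TPM in the feeder-free libraries, a change of −0.94 ± 0.0774, and at 268 to 319 TPM in primed libraries. TAP1, which carries peptides to MHC class I, was at 8.65 and 8.03 TPM on MEFs, against 14.3 and 13.6 TPM without feeders, and IRF1, a transcription factor of interferon signalling, at 10.6 and 8.82 TPM on MEFs, against 16.3 and 14.1 TPM without feeders. B2M passed with each library left out, TAP1 except without MEF replicate 2, and IRF1 in none of these fits. MX1, a classical interferon target, was at 4.62 and 4.70 TPM on MEFs, against 6.59 and 6.21 TPM without feeders, and did not pass (limma, adjusted p = 0.0884).

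In energy metabolism, the glucose transporter SLC2A3 was at 126 and 126 TPM on MEFs, against 197 and 172 TPM without feeders, a change of −0.54 ± 0.0651, and lactate dehydrogenase LDHA was at 226 and 207 TPM on MEFs, against 318 and 313 TPM without feeders. With the rise of ENO2 (0.41 ± 0.0826), these were the calls among 23 glycolysis genes, and with a library left out SLC2A3 alone passed. In the list of integrated stress and amino acid genes 4 of 21 rose and 0 fell (limma; 9 higher and 1 lower at an unadjusted p under 0.05), with a median change of 0.0773. The rises counted in this list included DDR2, which encodes a receptor for collagen and is not a stress or amino acid gene. PSAT1, an aminotransferase of serine synthesis, was at 66.0 and 63.9 TPM on MEFs, against 33.5 and 35.1 TPM without feeders, a rise of 0.90 ± 0.0634, and PHGDH, its first enzyme, at 194 and 191 TPM on MEFs, against 164 and 158 TPM without feeders, with a rise of 0.26 ± 0.0494. PSAT1 passed with each library left out and PHGDH only without feeder-free replicate 1. The other two, CHAC1 (0.88 ± 0.171) and DDR2 (0.75 ± 0.173), passed in none of those fits. ALDH18A1, which turns glutamate into a precursor of proline, was at 10.1 and 11.2 TPM on MEFs, against 22.6 and 21.7 TPM without feeders, a change of −0.99 ± 0.0799.

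Other large falls concerned single genes. ANXA1, a membrane-binding annexin, was at 4.56 and 3.46 TPM on MEFs, against 11.7 and 13.7 TPM without feeders, a change of −1.45 ± 0.159. The lysophosphatidic acid receptor LPAR6 was at 4.04 and 7.32 TPM on MEFs, against 15.8 and 13.4 TPM without feeders, and TNFSF9, a ligand of the tumour necrosis factor family, at 5.41 and 4.35 TPM on MEFs, against 13.2 and 11.8 TPM without feeders. VGLL1, a cofactor of TEAD factors that is expressed in trophoblast, was at 2.26 and 3.24 TPM on MEFs, against 8.28 and 6.30 TPM without feeders, with 0.0653 to 0.242 TPM in primed libraries. The zinc finger gene ZNF296 was at 3.39 and 3.08 TPM on MEFs, against 8.35 and 8.52 TPM without feeders, and MAP7D3, a microtubule-associated protein, at 41.8 and 41.7 TPM on MEFs, against 81.6 and 83.3 TPM without feeders. PERP, a desmosomal protein, was at 61.4 and 61.6 TPM on MEFs, against 128 and 114 TPM without feeders, a change of −0.96 ± 0.0684. CIB3 (−1.17 ± 0.181), DCBLD1, EPHX4 (−1.01 ± 0.234) and the myelin protein PLLP (−0.92 ± 0.206) completed the 15 largest falls among named genes with a mean of at least 5 TPM, beside DUSP6, TM7SF2, PERP, ALDH18A1 and B2M. ANXA1, LPAR6, TNFSF9, MAP7D3, DUSP6, TM7SF2, PERP, ALDH18A1 and B2M passed with each library left out. VGLL1 was lost without MEF replicate 1, ZNF296 without MEF replicate 2, CIB3 without feeder-free replicate 2 or MEF replicate 2, and DCBLD1 without either MEF library. EPHX4 passed only without MEF replicate 1, and PLLP in none of these fits. Among the largest rises not yet given, THRA, the thyroid hormone receptor alpha, was at 15.4 and 13.7 TPM on MEFs, against 3.26 and 2.63 TPM without feeders, and TSPO, a protein of the outer mitochondrial membrane, at 26.6 and 21.0 TPM on MEFs, against 5.70 and 5.84 TPM without feeders. Both passed with each library left out.

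Several lists gave few calls, to be read against 3.47% higher and 2.81% lower over all tested genes. Hypoblast genes gave 2 rises and 1 fall among 10 tested, RSPO3, the endocytic adaptor DAB2 (1.14 ± 0.183) and APOE. The trophectoderm list gave 1 rise, DAB2, and 2 falls, VGLL1 and KRT19, among 7. CYP1A1, an oxidase switched on by the aryl hydrocarbon receptor, stood at 552 and 554 TPM on MEFs, against 809 and 765 TPM without feeders, with 2.03 to 2.92 TPM in primed libraries. Its change of −0.51 ± 0.0984 was the single call among 9 genes of that receptor's list and passed in none of the fits that left out a library. Basement membrane genes gave 1 rise and 1 fall among 16, NID2 at 1.52 and 1.96 TPM on MEFs, against 0.531 and 0.543 TPM without feeders, and LAMA4 at 5.26 and 5.03 TPM on MEFs, against 11.2 and 9.81 TPM without feeders. LAMA4 was lost without either MEF library, NID2 whichever library was left out, and DAB2 and KRT19 passed only without feeder-free replicate 1. Counts were 0 for ribosomal proteins (32 tested), respiratory chain subunits (19), antioxidant enzymes (17), Notch genes (12), FGF ligands and receptors (9) and primitive streak genes (4) by limma. At an unadjusted p under 0.05, these lists had 0, 0, 1, 1, 2 and 0 members higher and 2, 5, 3, 1, 1 and 1 lower. Such counts cover only the listed members. Called genes outside these lists included the FGF ligand FGF7 (log2 change 2.455), the Notch effector HEYL (0.5505) and the respiratory chain subunit NDUFS6 (−0.2846).

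Further lists had few calls each, to be read against 3.47% higher and 2.81% lower over all tested genes. Genes of hypoxia gave 3 rises, LOX, VEGFA (0.77 ± 0.155), a growth factor for vessels, and BNIP3L (0.32 ± 0.0667), and 1 fall, DDIT4 (−0.27 ± 0.0475), among 18. Insulin and IGF genes gave 2 rises among 13, IGFBP4 (0.53 ± 0.0786) and IGFBP7, and retinoid genes 2 among 12, CRABP1 and RBP4 (0.34 ± 0.0799). At an unadjusted p under 0.05 (limma), 5 of the 13 insulin and IGF genes were higher and 2 lower. The list of YAP and TEAD genes gave 3 falls among 19, the cofactor VGLL1, CCN1 (−0.51 ± 0.0847) and NUAK2 (−0.36 ± 0.0706). Its median change was 0.0993, and 12 of its 19 changes were above 0. At an unadjusted p under 0.05 (limma), 3 of them were higher and 4 lower. Integrin and adhesion genes gave 2 falls among 18, ITGB1 (−0.25 ± 0.0599) and VCL (−0.43 ± 0.0839). BMP genes gave 1 rise, ID2 (0.58 ± 0.132), and 1 fall, ID4 (−0.36 ± 0.0718), among 15, and cytokines 1 of each among 7, CSF1 (0.71 ± 0.171) and ICAM1 (−0.54 ± 0.12). Immediate early genes gave 2 falls among 18, MYC and BTG2 (−0.45 ± 0.0906), and 9 of the 18 were lower and 1 higher at an unadjusted p under 0.05 (limma). The MYC network gave 1 fall among 15, MYC itself. DNA methylation genes gave 1 rise among 15, UHRF1 (0.29 ± 0.0679), and germ cell genes 1 among 2, DND1. Of these genes and the G1 and S phase rises, IGFBP4 was lost only without MEF replicate 2, and CCND3 without feeder-free replicate 2 or MEF replicate 2. BNIP3L, DDIT4, CCN1 and UHRF1 passed only without feeder-free replicate 1, VEGFA, VCL, ID2 and BTG2 only without feeder-free replicate 2, and CDKN1C only without MEF replicate 1. RBP4, NUAK2, ITGB1, ID4, CSF1 and ICAM1 passed in none of these 4 fits.

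**Figure D5:**
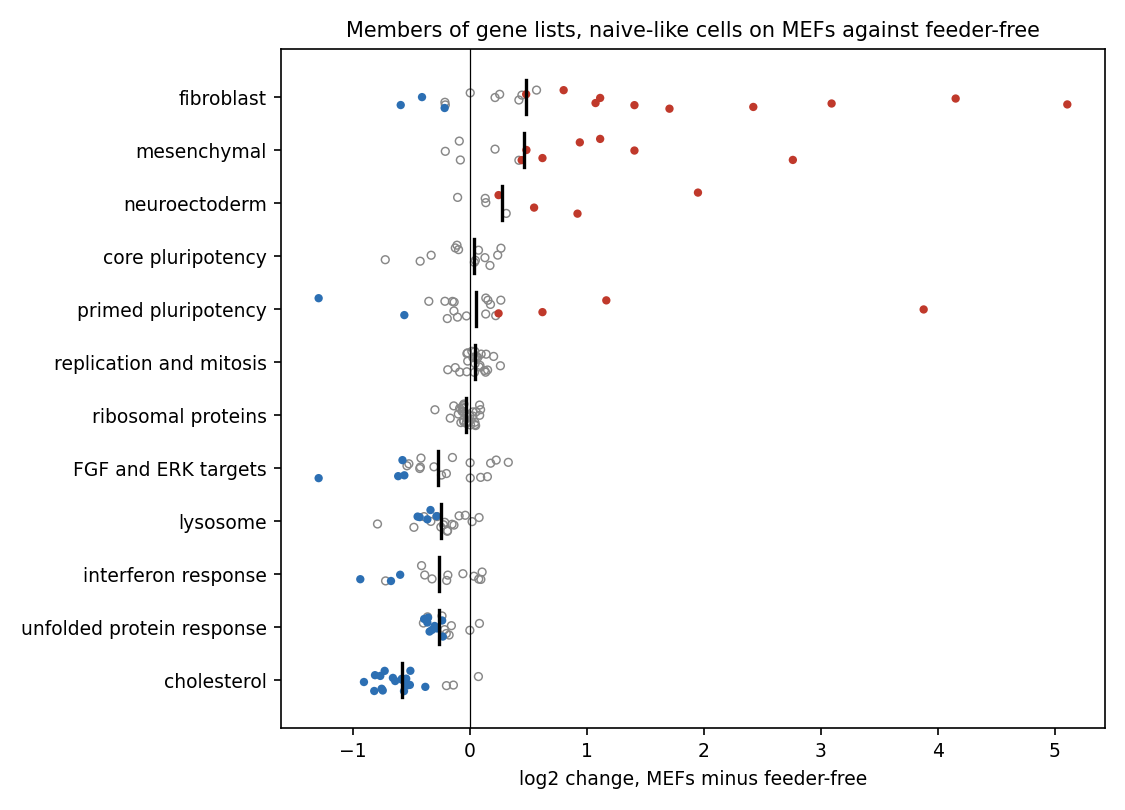
Change on MEFs (log2, MEFs minus feeder-free) of the tested members of 12 gene lists, each a point, with the list median as a black bar. Filled points passed at an adjusted p under 0.05 (red higher, blue lower). The cholesterol list has 18 of 21 filled below 0, and the core pluripotency, replication and ribosomal protein lists none.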

How the data were processed

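RNA-seq was done on polyadenylated RNA, sequenced in pairs on a NovaSeq X Plus, per the labels' protocols. The authors deposited TPM per gene. Per the submitters' processing notes, Salmon was used. The genome build, the Salmon version and the handling of mouse reads are not given in the sources used here. Symbols of 28429 of 28475 genes matched a RefSeq annotation of sheep (ARS-UI_Ramb_v3.0), used for gene types only, and the other 46 did not.

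Values were taken as log2(TPM + 1). Genes reaching 1 TPM in 2 or more of the 4 naive-like libraries were tested with limma 3.58.1 in R 4.3.3 (variance trend, 4 groups of 2 libraries, two-sided, Benjamini-Hochberg over all genes tested, threshold 0.05). Errors are standard errors. The procedure was tested on simulated data. Gene lists, 43 in number (some lists and genes are not reported here), and the comparison were chosen with earlier results of these data known, and are described by counts and medians. Genes were named by rule: the 15 largest rises and falls among symbols with a mean of at least 5 TPM and no overlap, up to 6 members per list with the smallest p, and any member of the pluripotency and fibroblast lists. SOX1, RAX, LHX2 and other list members given as not passing were named after their values were seen. Alternatives covered the pseudocount, filter, scaling, variance model, library set, replicate block and each library left out.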

Additional observations from a re-analysis of the deposited data

How the results depend on the processing

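Against 862 calls, 476 higher and 386 lower on MEFs, no filter gave 545 in all and 218 lower, a mean of at least 5 TPM gave 292 higher, no variance trend gave 247 lower, and the 4 naive-like libraries alone gave 479, 246 higher and 233 lower. At an adjusted p under 0.01 there were 296, 187 higher and 109 lower, and at 2-fold or more 160, 136 higher and 24 lower. Leaving out 1 library gave 215 to 771 calls, 142 to 556 higher and 73 to 215 lower; where this left 1 library in a group, it was assumed to vary like the others. Pseudocounts of 0.1 and 5, and 5 rescalings, kept all 3 counts within 1.5 times. Quantile normalization turned the sign of 1 called gene. For genes that had not passed, leaving out a library gave changes of −0.0237 to 0.117 for SOX2, −0.319 to 0.0361 for STARD4 and −0.181 to 0.326 for HSD17B7, on both sides of 0.

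With the replicate number as a block, 834 genes passed, 463 higher and 371 lower, and 881 with the 4 naive-like libraries alone, 449 higher and 432 lower. The numbers share no stated source, and deviations of the same-numbered MEF and feeder-free libraries correlated at −0.0282, so they were not treated as pairs. That value does not cover the primed libraries. Between lines A and B, same-numbered libraries correlated at 0.9777 and 0.9784, and libraries of unlike number at 0.9746 and 0.9773. TPM carry no counts, so the depth behind low values is unknown, and 2 libraries a group cannot give an exact permutation p under 0.333.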

Other observations

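Genes of fatty acid synthesis and of MHC class I presentation were put into lists after the values were seen, so their counts carry no weight as a test. Of 13 fatty acid genes tested, 11 fell on MEFs and 0 rose by limma. SREBF1, which encodes the regulator of fatty acid synthesis, was at 10.5 and 10.5 TPM on MEFs, against 16.2 and 15.3 TPM without feeders. The desaturases SCD and FADS1 were at 349 and 329 TPM and 112 and 107 TPM on MEFs, against 586 and 429 TPM and 165 and 159 TPM without feeders, and the elongase ELOVL6 was at 92.5 and 99.1 TPM on MEFs, against 148 and 135 TPM without feeders. ACSS2, which makes acetyl-CoA from acetate, was at 15.3 and 14.4 TPM on MEFs, against 26.3 and 27.6 TPM without feeders. FASN (−0.17 ± 0.0835) and ME1 (−0.13 ± 0.0829) were the members that did not pass (limma, adjusted p = 0.265 and 0.397). Of 12 MHC class I genes tested, 8 fell and 0 rose, among them TAPBP, which loads peptides, at 29.3 and 26.7 TPM on MEFs, against 45.3 and 47.2 TPM without feeders, and TAP2 at 14.3 and 13.2 TPM on MEFs, against 19.4 and 18.4 TPM without feeders. With a library left out, 3 to 7 of the fatty acid genes and 2 to 6 of the MHC genes fell.

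Genes that carry only a locus identifier were frequent among the largest changes. They made up 15.4% of all tested genes, 46.5% of the 43 genes that rose by at least 4-fold and 50% of the 24 that fell by at least 2-fold. LOC101111229 was at 101 and 103 TPM on MEFs, against 3.35 and 1.97 TPM without feeders, and LOC101103351 at 167 and 160.1 TPM on MEFs, against 4.19 and 7.12 TPM without feeders, both named after their values were seen. In the RefSeq annotation all 43 were listed as protein coding. LOC114117101, annotated as a snoRNA, was at 21.4 and 0 TPM on MEFs, against 204 and 176 TPM without feeders, and of the fits that left out a library it passed only the one without MEF replicate 1.

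Among 16 tested genes of the imprinted list, 4 rose and 1 fell, against 3.47% and 2.81% over all tested genes. GTL2, an imprinted gene that this count leaves out, was also called lower on MEFs (log2 change −0.5058). PEG10 was at 71.6 and 68.2 TPM on MEFs, against 48.8 and 35.3 TPM without feeders, and PLAGL1 at 3.69 and 3.30 TPM on MEFs, against 6.51 and 7.22 TPM without feeders. With a library left out, 0 to 2 rose and 0 or 1 fell. CRABP1, which binds retinoic acid, was at 5.41 and 5.93 TPM on MEFs, against 3.19 and 2.04 TPM without feeders, and DND1, an RNA-binding protein of germ cells, at 13.8 and 12.4 TPM on MEFs, against 5.00 and 6.32 TPM without feeders. DND1 passed with each library left out and CRABP1 only without feeder-free replicate 1.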
